A study of Mus musculus with 2 samples.

Results

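Transcripts annotated as targets of nonsense-mediated decay were followed here in total RNA of mouse hippocampus. A transcript was taken when GENCODE gives it this class and its expected count, the estimated number of reads assigned to it, was at least 50 in both libraries. There were 1156 such transcripts of 7186 annotated in the class, which is 16.1%, and they came from 1028 genes. The transcripts were chosen by these counts, so their levels below are a description and were not tested.

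The animals were male B6CASTF1/J mice aged 2 months, which are F1 offspring of C57BL/6J and CAST/EiJ parents, supplied by The Jackson Laboratory and given no treatment in the labels. The 2 libraries, biological replicates 1 and 2, form 1 group and were each made from 300 ng of total RNA. Both carry the same strain-level donor label, so that they are separate animals rests on the replicate numbers. Replicate 1 held 31422826 and replicate 2 held 31303011 expected counts. Each library was quantified in 2 ways at transcript level, called the first and the second quantification here. Genes that mark hippocampal principal cells were present at 1 TPM (deposited transcript abundance, corrected for length) or more in both libraries for 10 of 10, and interneuron genes for 6 of 6. Choroid plexus and ependymal genes reached that level for 3 of 5, between 0.08 and 10.64 TPM in replicate 1 and between 0.22 and 23.09 TPM in replicate 2. Of 4 genes that mark other tissues 2 reached it, Lhx9 at 6.69 and 6.54 TPM and Myh6 at 1.02 and 1.67 TPM, while Alb was at 0.02 and 0.04 TPM and Ins2 at 0 in both. The part of these genes' cells in the levels of the decay-class transcripts was not tested.

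Nonsense-mediated decay is the surveillance route that removes messenger RNAs whose reading frame ends ahead of an exon junction. The exon junction complex left on the RNA after splicing is normally pushed off by the ribosome, and one that stays bound beyond the stop helps UPF1 to start decay. GENCODE gives the class from the position of the stop codon, so the label is a prediction about structure and says nothing of how fast a molecule is lost. Many genes of splicing factors, the SR proteins among them, use such transcripts to limit their own level. Their protein favours the inclusion of an exon with an in-frame stop, often called a poison exon.

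The ends of the reading frames are shown for 13 transcripts, the 8 from genes of SR and SR-related proteins and the 5 with the highest TPM. They show where each annotated reading frame ends. Each line gives the last 27 coding bases in lower case and the stop codon in capitals, 5′ to 3′ on the strand of the gene, from the GENCODE M21 transcript sequences on mm10.

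Srsf9-205: cctgggttggagattacggattcacagTAG

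Srsf6-201: gccatgacgacagcagccttttgccatTAG

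Srsf3-201: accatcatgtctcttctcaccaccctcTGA

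Tra2b-206: aatgagtatttgaagctcaggaataagTGA

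Tra2a-202: aaaaaattgaacagaagattggtcagaTAG

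Srrm2-203: cattccgaagacacggtccctgccctcTAG

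Srek1-206: ttatgcaatgactttcttggatgtttcTGA

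Srsf1-204: aagagatggattaagaatgctttggatTAA

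Ppia-201: caaagacagcagaaaactttcgagctcTGA

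Ndufa3-204: gggcctcgctataattatgcccatgatTAG

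Eif4a2-210: ttgcattggaggaacaaatgttcgaaaTGA

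Atp2a2-203: actaactttagcgatatgttctggtctTGA

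Rpsa-206: tggccgcttcacacctgggaccttcacTAA

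In the first 6 of these the stop codon sat in a whole exon that lies within an intron of the gene's leading protein-coding transcript, the one with the highest mean TPM. The stop of Srsf9-205 is at chr5:115328426-115328428 in an exon of 358 bases, and that of Srsf6-201 is at chr2:162932964-162932966 in an exon of 268 bases. Srsf3-201 stops at chr17:29039485-29039487 in an exon of 456 bases and Srrm2-203 at chr17:23811857-23811859 in an exon of 261 bases. These 4 genes are on the plus strand. On the minus strand, Tra2b-206 stops at chr16:22259181-22259183 in an exon of 276 bases and Tra2a-202 at chr6:49252965-49252967 in an exon of 306 bases. Srek1-206, also on the minus strand, stops at chr13:103758439-103758441 in an exon that overlaps 1 exon of the coding transcript and runs past it. The stop of Srsf1-204, at chr11:88050013-88050015, is in sequence that is exonic in the leading coding transcript too, and so are those of Ppia-201 (chr11:6418241-6418243), Ndufa3-204 (chr7:3619449-3619451), Eif4a2-210 (chr16:23110065-23110067) and Rpsa-206 (chr9:120130192-120130194), all on the plus strand. In Ppia-201 only the last 18 of the 30 bases, and in Ndufa3-204 the last 22, are in the exon that holds the stop. Atp2a2-203 ends its reading frame at chr5:122457151-122457153 on the minus strand, the same stop as the coding transcript, and differs by a junction 1258 bases after it.

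Over all 1156 transcripts the stop lay where the class definition puts it. Of the 1155 with an annotated stop, 1150 (99.6%) had it more than 50 bases before the last exon junction, and the median distance was 596 bases with a range from 30 to 12430. Among all annotated transcripts of the class the share was 99.5% with a median of 334 bases, and among protein-coding transcripts that passed the same count minimum it was 0.464%. A single junction followed the stop in 209 transcripts, 2 junctions in 170 and at least 3 in 776. The reading frame was short: its median was 420 bases against 1591.5 for the leading coding transcripts of the same genes. TGA closed 643 of the frames (55.7%), TAA 260 and TAG 252.

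**Figure D1:**
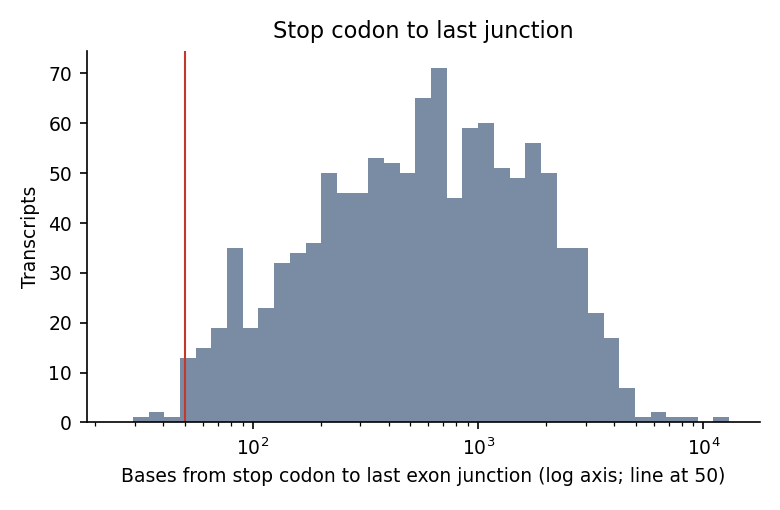
Number of decay-class transcripts (vertical axis) by the distance in bases from stop codon to last exon junction (horizontal log axis). The red line marks 50 bases, and 5 of 1155 transcripts lie at or below it.

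Set against the leading coding transcript of the gene, 1134 transcripts could be placed by how they reach their stop. In 583 (51.4%) the stop fell in sequence that the coding transcript also keeps as exon. Of these, 285 skipped at least 1 internal exon of the coding transcript before the stop, 61 added an exon, 18 did both and 219 did neither. Where exons were skipped, the skipped length was not a multiple of 3 in 283 of 303, a length that shifts the reading frame if the exons are coding. Whether the skipped exons were coding was not checked. In 463 (40.8%) the stop was in sequence that the coding transcript splices out or does not reach. That group held 206 whole exons within an intron, the layout of a poison exon, with a median length of 112.5 bases. Others were 148 that run past an exon of the coding transcript, 73 outside it and 36 that join exons across a retained intron. The remaining 88 (7.76%) shared the stop of the coding transcript and had a further junction after it. Median isoform percent, the part of its gene's TPM that a transcript holds, was 18.03 with the shared stop, 16.2 with the stop in common exon sequence and 12.9 with the stop in other sequence.

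The class as a whole took a small part of the library. All 7186 annotated transcripts held 1.55% of the expected counts in each replicate. Their TPM, in whichever gene, was also set against the summed TPM of all genes with a protein-coding transcript. It came to 2.59% of that sum in replicate 1 and 2.61% in replicate 2. The second quantification put that share at 3.31% and 3.30%. The 1156 transcripts accounted for 88.4% of the class's counts in replicate 1 and 88.7% in replicate 2. Below the minimum, 2562 annotated transcripts (35.7%) had no count in either library, and 403 reached 50 counts in 1 library only. The closest inside were Lpcat2-204, with counts of 74.79 and 50.05, Dnajc1-201, with 50.18 and 108.73, and Ptprg-206, with 54.89 and 50.25. The closest outside were Mettl16-202, with 64.76 and 49.98, Skp1a-205, with 49.95 and 56.24, and Mfsd4a-206, with 49.67 and 74.28.

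Levels were mostly low. The median of the mean TPM was 3.51 (3.56 in replicate 1 and 3.41 in replicate 2), with quartiles of 1.75 and 7.62 and a range from 0.235 to 557.72. It was 6.74 for protein-coding and 2.52 for retained-intron transcripts with the same count minimum. At least 10 TPM was reached by 218, at least 50 TPM by 21 and at least 100 TPM by 7. Within their genes the median isoform percent was 15.6, with quartiles of 7.81 and 28.5, against 42.3 for protein-coding and 7.68 for retained-intron transcripts. At least 50% of the gene was held by 102 (8.82%), at least 90% by 19, and less than 5% by 160. In genes with more than 1 transcript, 225 of 1142 (19.7%) were the most abundant transcript of their gene, where 43.7% of all transcripts past the minimum were. Seen from the gene, 2445 genes of at least 10 TPM had several transcripts with 1 or more of the class, and the class held a median of 3.99% of the gene's TPM in them. It held at least 50% in 81 of these genes.

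**Figure D2:**
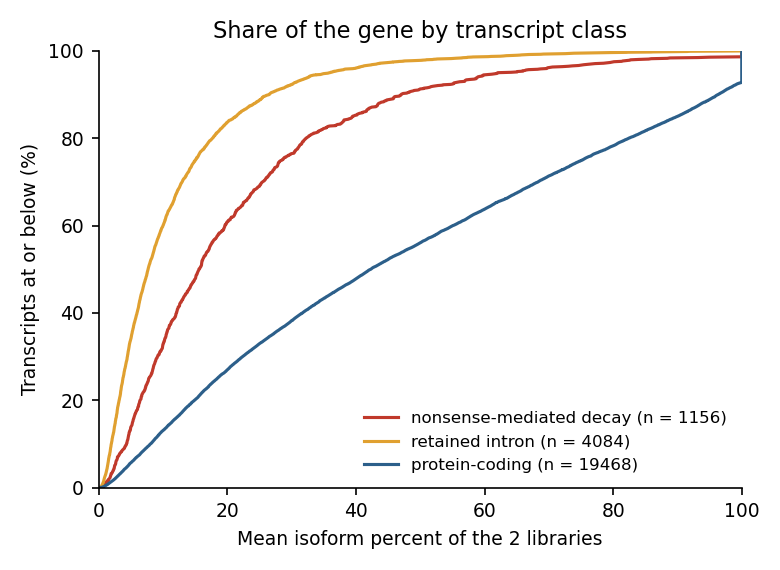
Cumulative share of transcripts (vertical axis, percent) by mean isoform percent of both libraries (horizontal axis), for the 3 largest transcript classes with at least 50 counts in both libraries. The decay class, with a median of 15.6, runs between retained introns (7.68) and protein-coding transcripts (42.3).

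The most abundant transcript of the class was Ppia-201, of the gene for cyclophilin A, a peptidyl-prolyl isomerase that is made in nearly all cells. It stood at 575.65 and 539.79 TPM in replicates 1 and 2, or 557.72 ± 25.4 TPM (SD, n = 2), with an isoform percent of 84.31 and 79.79. The coding transcript Ppia-202 was listed at only 4.75 and 6.51 TPM. The second quantification divided the gene differently, with 44.8% in Ppia-201, 25.7% in Ppia-202 and 29.0% in the retained-intron transcript Ppia-204, which the first put at 0.75 and 0.46 TPM. The reading frame of Ppia-201 is 120 bases and that of Ppia-202 is 492 bases. Its TPM also lay above the authors' own interval in both libraries (543.24 to 573.36 and 509.77 to 538.35), as it did for few others: the deposited TPM was outside its interval for 6 transcripts in replicate 1 and 7 in replicate 2.

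Ndufa3-204, from a gene for a subunit of respiratory complex I, was at 215.88 and 220.39 TPM and took 92.90% and 93.46% of its gene. In the second quantification it was listed at 0 in replicate 1 and at 35.95% of the gene in replicate 2. None of its 31-base words is absent from the other transcripts of the gene, so no stretch of that length is its own. Eif4a2-210, of an eIF4A helicase gene, stood at 164.95 and 172.17 TPM and 43.86% and 43.61% of the gene, against 4.86% and 6.92% in the second quantification. It too has no word of its own. Both libraries were close to each other in the first quantification for these transcripts, while the quantifications were far apart.

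Atp2a2-203 has a reading frame of 3132 bases, as long as that of the coding transcript Atp2a2-201, for the calcium pump of the endoplasmic reticulum. It carries the class for the junction after its stop. It stood at 159.46 and 150.35 TPM, 62.19% and 60.84% of the gene, with 44.49% and 42.93% in the second quantification, so it led the gene in both. It had the most counts of the class, 19989.10 and 19365.60, over 5674 bases. Rpsa-206, of a gene for a protein of the small ribosomal subunit, was at 143.94 and 144.73 TPM with 80.16% and 80.11% of the gene. The second quantification gave it 38.20% and 39.36% and placed the coding transcript Rpsa-204 first.

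Transcripts that held most of their gene in both quantifications were of several kinds. Syt16-201, from a synaptotagmin-family gene, stops in a whole exon within an intron and made up 80.94% and 81.71% of the gene at 16.99 and 19.58 TPM. The second quantification gave 74.36% and 71.71%. Mnat1-203, from the gene for the assembly factor of the CDK-activating kinase, skips 1 exon of the coding transcript. It stood at 87.55% and 90.09%, with 85.02% and 88.86% in the second. Mrpl32-201, from a mitochondrial ribosomal protein gene, stood at 77.45% and 76.89%, with 72.66% and 73.90% in the second. Mobp-204, of the myelin gene Mobp, shares the coding stop and made up 59.66% and 59.58%, with 54.07% and 53.43% in the second. These 4 kept a majority of their gene in every library and quantification. Mrps14-201, also of a mitochondrial ribosomal protein gene, did not: it took 85.35% and 85.72% in the first quantification and was at or near 0 in the second, which put 91.5% and 8.47% of the gene's mean in 2 coding transcripts.

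Members among splicing factor genes were numerous. Of 14 SR and SR-related genes with an annotated transcript of the class, 8 had one past the minimum (57.1%), and for hnRNP genes it was 7 of 11 and for other splicing regulators 16 of 27. Over all genes it was 1028 of 4576 (22.5%), or 1028 of the 3607 that reached 50 counts as genes in both libraries. In the core spliceosome it was 6 of 22 genes. Whole exons within an intron held the stop in 6 of the 8 SR and SR-related transcripts, 1 of 11 hnRNP transcripts, 6 of 23 from other regulators and 206 of all 1156. The counts describe lists of different depth and annotation, and no test was made of them.

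Srsf9-205, of an SR protein gene, was the highest of these, at 20.69 and 20.10 TPM and 55.59% and 56.66% of the gene. The coding transcript Srsf9-201 had 10 and 12.86 TPM, and Srsf9-205 led the gene in the second quantification too, at 54.16% and 43.76%. The annotated coding start was not found for Srsf9-205, nor for Srsf1-204 and Srrm2-203, which limits what their frames show. Srsf6-201 stood at 11.86 and 10.69 TPM, 27.42% and 27.15% of the gene, beside 20.87 and 19.60 TPM for its coding transcript Srsf6-203. Srsf6-201 varied little, and the second quantification gave it 32.98% and 33.85%.

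Srsf3-201 stood at 10.72 and 7.80 TPM, 20.33% and 13.03% of the gene, while the second quantification gave 27.17% and 29.19%. As a share of the gene, replicate 2 was thus lower in one quantification and higher in the other. In TPM it was lower in both, with 23.36 and 20.44 TPM in the second. The authors' TPM intervals for Srsf3-201, 8.26 to 12.45 and 5.51 to 9.39, overlap, and no 31-base word of the transcript is its own. Tra2b-206 stood at 5.38 and 6.50 TPM, 17.21% and 21.33% of the gene, and the second quantification gave 18.73% and 21.02%. Tra2b and Tra2a encode regulators with arginine-serine domains that promote exon inclusion. Tra2a-202 was at 5.49 and 3.48 TPM, 19.27% and 13.17%, and the second quantification also had replicate 2 lower, at 42.55% and 31.65%.

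The other 3 were less alike. Srsf1-204 stood at 14.84 and 15.06 TPM, 15.58% and 15.90% of the gene, and at 17.97% and 17.13% in the second quantification. Srek1-206, from the gene for a splicing regulatory protein with arginine-serine repeats, was at 4.29 and 3.78 TPM and 10.72% and 11.65%, with 13.37% and 13.79% in the second. Srrm2-203, from the gene of a large arginine-serine matrix protein of the spliceosome, was at 13.61 and 13.90 TPM and 5.46% and 6.27% in the first quantification but 0.65% and 0 in the second.

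**Figure D3:**
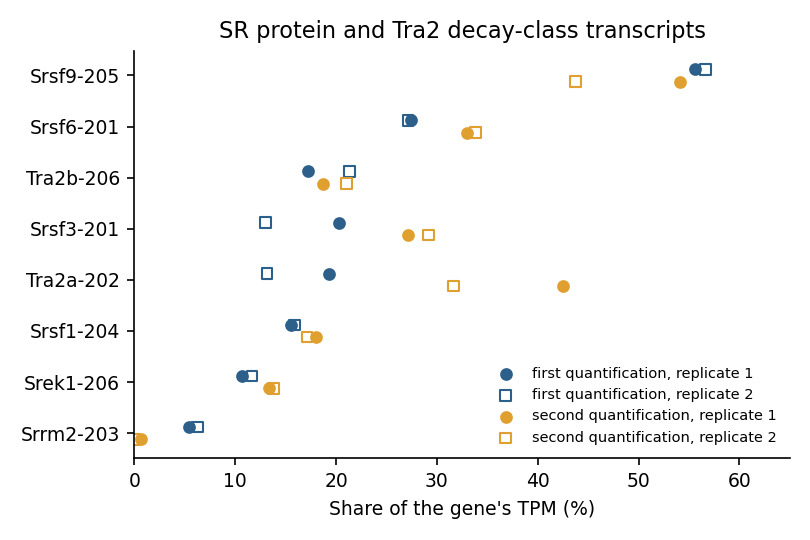
Share of the gene's TPM (horizontal axis, percent) for the 8 SR and SR-related transcripts of the class, with blue for the first and orange for the second quantification, filled circles for replicate 1 and open squares for replicate 2. Srsf9-205 lies highest in all 4 values and Srrm2-203 lowest in all 4.

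Among the hnRNP genes, whose proteins coat nascent RNA, Hnrnpu-206 was highest with 73.54 and 70.19 TPM, 41.87% and 45.25% of the gene, and 38.14% and 39.69% in the second quantification. Hnrnpu-209, from the same gene, was at 27.63 and 20.85 TPM and was listed at 0 in the second quantification in both libraries. Both Hnrnpu transcripts are marked as readthrough between genes, and the coding start of Hnrnpu-209 was not found. Hnrnpa1-203 stood at 30.50 and 37.22 TPM. Of the other regulators, Khdrbs3-204, of a STAR-family RNA-binding protein gene, stood at 35.77 and 32.62 TPM, with 24.53% and 24.91% of the gene. Srpk2-204, of an SR protein kinase gene, stood at 29.27 and 26.79 TPM, and Celf2-228 at 31.59 and 26.20 TPM. Srpk2-204 held 46.37% and 45.49% of its gene, and the second quantification gave 32.61% and 31.39%.

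None of the genes for the decay machinery itself and the exon junction complex had a member. Only 4 of its 24 listed genes have a transcript annotated in the class, 6 transcripts in all. Beside this, 1028 of all 4576 annotated genes (22.5%) had a member, or 1028 of the 3607 that reached 50 counts. With only 4 annotated genes, the lack of a member says little about this list. The highest, Smg5-202, had counts of 24.3 and 29.78. Smg1-204 and Smg6-202 had 0 in both libraries of the first quantification, while the second listed Smg1-204 at 5.86 and 4.95 TPM.

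Among synaptic genes, postsynaptic genes had 14 members in 9 of 12 annotated genes, and presynaptic genes 5 members in 4 of 7. All of these annotated genes reached 50 counts in both libraries. Over all annotated genes 22.5% had a member, or 1028 of the 3607 that reached 50 counts. Gabra2-204, from a GABA-A receptor subunit gene, was at 19.24 and 16.09 TPM, 33.84% and 30.87% of the gene, with 36.79% and 37.32% in the second quantification. Gria3-206, of an AMPA receptor subunit gene, was at 16.53 and 15.39 TPM and 24.72% and 23.49%, but at 0.96% and 3.74% in the second. Against the first quantification, the second thus placed Gabra2-204 close by and Gria3-206 lower. Dnm1-206, of the dynamin gene of synaptic vesicle recycling, stood at 40.48 and 39.64 TPM and 7.20% and 7.29% of its gene. Erc1-206, of an active zone scaffold gene, stops in a whole exon within an intron and stood at 8.61 and 8.43 TPM, 40.73% and 43.69%, with 32.85% and 34.18% in the second.

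In bulk tissue, few cells with a transcript and little of it in each cell cannot be told apart. Among genes of glia, 2 of 4 annotated oligodendrocyte genes had a member, Mobp and Qk. Qk-202, of the RNA-binding protein Quaking, stood at 15.37 and 13.45 TPM, 10.36% and 9.90% of the gene. There was none in the 2 annotated astrocyte genes or the 1 annotated microglia or vessel gene, and none in the 6 annotated cytoskeleton genes. The astrocyte transcript Clu-205 had counts of 10.31 and 15.73 in the first quantification, or 1 and 1.48 TPM. In the second it was at 269.1 and 293.0 TPM, both without rescaling. Of 20 annotated respiratory chain genes 7 had a member, and of 16 annotated cytosolic ribosomal protein genes 7 (35.0% and 43.8%, beside 22.5% over all genes). These annotated genes all reached 50 counts, as did 3607 of all 4576, of which 1028 had a member. The ribosomal protein transcripts had a median isoform percent of 19.3 in the first and 1.05 in the second quantification, and 6 of the 10 were at least 4-fold apart between them, beside 140 of all 1156 (12.1%).

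Antizyme inhibitor and ornithine decarboxylase, which set polyamine synthesis, each gave 1 member. Azin1-205 stood at 4.04 and 3.07 TPM and 6.97% and 5.30% of its gene, and Odc1-205 at 2.46 and 1.88 TPM and 7.51% and 5.69%. Both were lower in replicate 2 in both quantifications as shares of the gene.

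Between the libraries the ratios of all 1156 transcripts together spread more widely than those of the other classes, but not at every count level. Over the 1156, the libraries had a Pearson r of 0.962 on log2 values with 1 added to each TPM. Spearman's rho was 0.936, both across transcripts of the same 2 libraries. The log2 ratio of replicate 2 over replicate 1 had a median of -0.06 and an SD of 0.49, against 0.39 for protein-coding and 0.34 for retained-intron transcripts. In the same order of classes, these SDs were 0.45, 0.41 and 0.34 at 50 to 100 counts and 0.60, 0.51 and 0.37 at 100 to 300 counts. At 300 to 1000 counts they were 0.34, 0.35 and 0.25, so the decay class did not exceed protein-coding transcripts there, and at 1000 counts or more they were 0.25, 0.20 and 0.18. The minimum of 50 counts in both libraries trims large ratios among low transcripts in every class. Replicate 2 was at least 2-fold higher for 35 (3.03%) and at least 2-fold lower for 36 (3.11%). Of all 27278 transcripts past the minimum, 1.27% were higher and 1.61% lower. At like counts the gap to protein-coding transcripts varied. At least 2-fold apart were 3.28% here against 3.04% at 50 to 100 counts, and 10.9% against 6.40% at 100 to 300 counts. At 300 to 1000 counts it was 1.71% against 2.12%, and at 1000 counts or more 1.22% against 0.43%. The isoform percent had a median absolute difference of 2.30 points between the libraries and was at least 10 points apart for 89.

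Of the 71 transcripts at least 2-fold apart, 63 were in genes whose own TPM was within 1.2-fold between the libraries. The authors' TPM intervals of the libraries overlapped for all but 5 of the 71, and 27 were also at least 2-fold apart in the same direction in the second quantification. In that quantification 149 of all 1156 were at least 2-fold apart in either direction. The share of all 1156 in genes within 1.2-fold is not given here, so the 63 cannot be read as a trait of the 71. Their median share of own 31-base words was 1.18%, against 2.78% for all 1156. Over all 1156, 22 (1.90%) had intervals that did not overlap, where 4.62% of all transcripts past the minimum had. At 50 to 100 counts it was 0.90% here and 0.41% of protein-coding transcripts, and at 100 to 300 counts 1.98% and 1.26%. At 300 to 1000 counts it was 1.28% and 2.96%, and at 1000 counts or more 7.32% and 13.0%. Retained-intron transcripts had 0.93%, 4.92%, 12.7% and 22.2% in the same order of counts. The posterior coefficient of variation, the deposited spread of the count estimate, had a median of 17.7% here and of 7.58% for protein-coding transcripts, so these intervals are wide.

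Slc6a8-202, from the creatine transporter gene, had the largest ratio in favour of replicate 2, at 0.87 and 4.04 TPM, with intervals of 0.00 to 5.04 and 1.00 to 7.31. The second quantification listed it at 0 and 0.19 TPM. Shank3-208, of a postsynaptic scaffold gene, stood at 1.53 and 5.96 TPM with intervals of 0.30 to 3.87 and 3.98 to 9.23, which do not overlap. In the second quantification it held 11.96% and 18.17% of the gene. Pakap-201 had the largest ratio in favour of replicate 1, at 1.99 and 0.43 TPM, yet 22.80% and 26.07% of the gene in the second. Pakap-201 is marked as readthrough between genes. Of these 3, only Shank3-208 had intervals that were apart and the same direction in both quantifications.

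Estimates for members of 1 gene could differ in opposite directions between the libraries, with authors' intervals that overlap. Adarb1 encodes the RNA-editing enzyme ADAR2. Adarb1-203 stood at 14.16 and 9.90 TPM, and Adarb1-206 at 4.99 and 10.21 TPM, while the log2 ratio of the gene was -0.10. In the second quantification they held 15.30% and 9.68%, and 20.67% and 23.62%. The authors' TPM intervals of Adarb1-203 were 2.94 to 13.99 and 1.61 to 10.32, so its TPM in replicate 1 lay above its own interval. Those of Adarb1-206 were 2.81 to 14.63 and 7.62 to 17.12. For both transcripts the intervals of the libraries overlap, and neither transcript has a 31-base word of its own. The mineralocorticoid receptor transcript Nr3c2-208 stood at 6.33 and 2.26 TPM, 10.16% and 4.05% of the gene, with 10.28% and 7.58% in the second quantification. The histone deacetylase transcript Hdac5-205 stood at 9.85 and 17.50 TPM, 9.95% and 16.18% of the gene, with 15.87% and 22.91% in the second. Replicate 2 was lower for Nr3c2-208 and higher for Hdac5-205 in both quantifications. The authors' intervals of the libraries overlap for both. They were 3.99 to 9.11 and 0.22 to 4.34 for Nr3c2-208, and 6.64 to 13.38 and 13.31 to 20.59 for Hdac5-205.

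**Figure D4:**
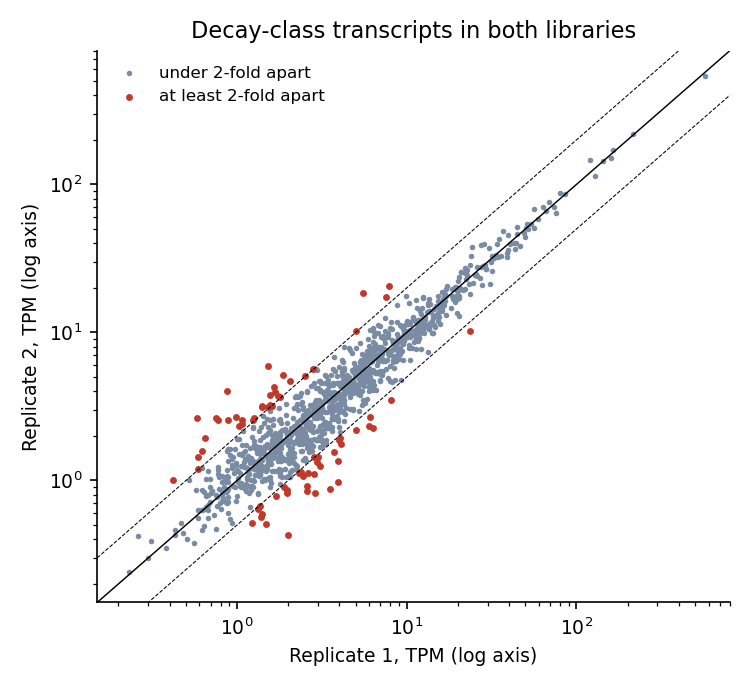
TPM of the 1156 transcripts in replicate 1 (horizontal log axis) against replicate 2 (vertical log axis), with the line of equality and dashed lines at 2-fold. The 71 transcripts at least 2-fold apart are red and 67 of them have a mean under 10 TPM.

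Between the quantifications, agreement was much looser than between the libraries. For this comparison each library's TPM was rescaled to the same sum over transcripts of genes with a protein-coding transcript. The median log2 ratio of the second over the first was -0.12, with quartiles of -0.67 and 0.31, and it was -0.19 for protein-coding and -0.11 for retained-intron transcripts. The sign of so small a median turns with the scaling: it was 0.06 when the median ratio of protein-coding transcripts was set to 0. Pearson's r over log2 values, with 1 added to each rescaled TPM, was 0.660 and Spearman's rho 0.655. Within 2-fold were 833 of the 1156 (72.1%). At least 4-fold higher in the second were 12 (1.04%, where 1.39% of all transcripts past the minimum were), and at least 4-fold lower were 128 (11.1%, where 9.7% were). Of those, 49 (4.24%) were listed under 0.01 TPM, against 4.42% of all. The pooled shares were near these backgrounds, but at like counts the class differed from protein-coding transcripts. At least 4-fold apart were 12.2% here against 15.4% at 50 to 100 counts, and 11.3% against 13.9% at 100 to 300 counts. At 300 to 1000 counts it was 13.2% against 9.32%, and at 1000 counts or more 13.4% against 5.35%. Retained-intron transcripts had 8.11%, 8.10%, 10.9% and 11.1% in the same order of counts. As the count minimum was set on the first quantification only, transcripts high there by estimate alone are kept, and those high in the second alone are not.

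The median isoform percent was 13.4 in the second quantification against 15.6 in the first, with a Pearson r of 0.812 and a Spearman rho of 0.711 across transcripts. It was within 5 points for 582 (50.3%), at least 10 points higher in the second for 128 and at least 10 points lower for 197. The second made 209 of the transcripts the most abundant of their gene, of which 137 were also so in the first. That is 60.9% of the 225 in the first and 65.6% of the 209.

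Transcripts with little sequence of their own were more often far apart, and whether the shared sequence accounts for it was not tested. With no 31-base word of their own, 20.7% of 150 transcripts were at least 4-fold apart. With more than 0 and up to 5% of own words it was 13.0% of 591, from 5% to 20% it was 11.6% of 224, and above 20% it was 3.14% of 191. Pearson's r between the quantifications, on log2 values with 1 added as above, was 0.585 in the first of these groups and 0.865 in the last. The share of own words was 6.99% at the median for protein-coding and 37.1% for retained-intron transcripts, against 2.78% here.

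Rab11b-204, of a recycling endosome GTPase gene, was at 56.26 and 50.92 TPM and 42.92% and 39.44% of its gene in the first quantification and at 0 in both libraries in the second. Rpl13a-202, with 43.93 and 40.25 TPM, Sez6l2-207, with 29.48 and 26.70 TPM, and Vps29-207, with 24.27 and 37.51 TPM, were also at 0 in the second. In the other direction, Ndrg4-210, of a neuronal NDRG family gene, was at 1.81% and 2.00% of the gene in the first and at 37.94% and 31.74% in the second. Nipsnap1-203 went from 4.95% and 4.92% to 36.94% and 33.85%, and Mpped1-204 from 5.18% and 4.41% to 29.43% and 32.32%. In each of these 7 transcripts the libraries were on the same side of the gap between quantifications. The glycolytic gene Gpi1 had members on both sides: Gpi1-206 stood at 11.74% and 15.81% and Gpi1-208 at 2.41% and 5.69% in the first and both at under 1% in the second. Gpi1-207 went from 9.81% and 6.88% to 34.30% and 38.07%.

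**Figure D5:**
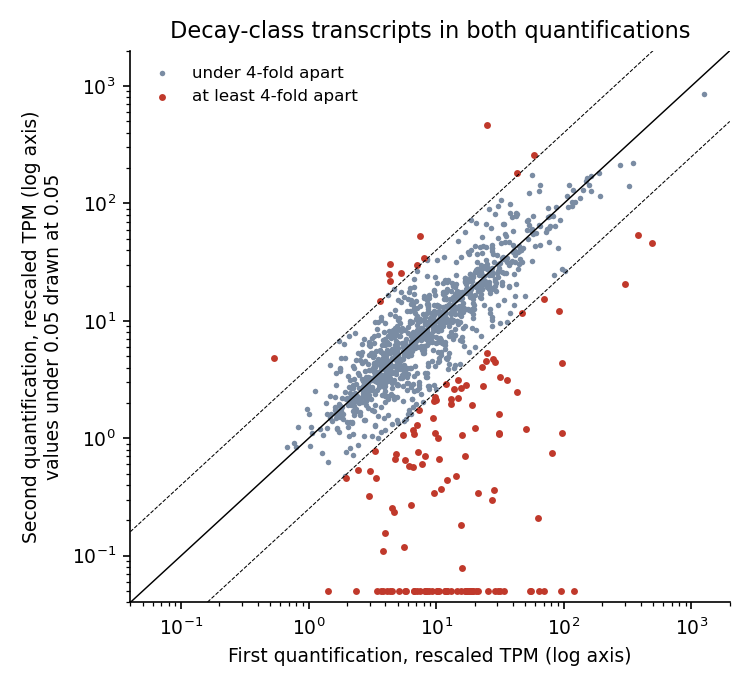
Mean TPM of the 1156 transcripts in the first (horizontal log axis) and second quantification (vertical log axis), both rescaled to a shared sum, with the line of equality and dashed lines at 4-fold. Values under 0.05 are drawn at 0.05, and 140 red points are at least 4-fold apart, 128 of them lower in the second.

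The evidence behind the annotation was mixed. GENCODE gives support level 1, its highest, to 548 of the transcripts and level 5, its lowest, to 325, and 122 have none. Median isoform percent was 16.3 at level 1, 14.8 at level 2, 18.8 at level 3, 14.5 at level 5 and 14.0 without a level. It thus did not fall steadily with the level. The coding start was not found in 205 (17.7%), 32 are marked as readthrough between genes, and 5 share their whole sequence with another transcript. Ppia-201, Ndufa3-204 and Eif4a2-210 have level 5, while Atp2a2-203 and Rpsa-206 have level 1.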

How the data were processed

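Members and gene lists were chosen with earlier results of these data known. Per the labels, total RNA was sequenced with ERCC spike-ins. The deposited text listings state that the first transcript quantification came from reads aligned to the transcriptome and the second straight from reads, on mm10 with GENCODE M21. Which programs made them is not given in the sources used here. Of the deposited values, the expected count is an estimated, fractional read count, TPM is scaled over all entries, isoform percent gives the part of its gene's TPM that a transcript holds, and other columns hold a posterior spread and a TPM interval of unstated level. Isoform percent of the second quantification was recomputed from its TPM. CAST/EiJ reads were assigned to the C57BL/6J reference, and the effect was not measured.

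Stops, exons and sequences came from GENCODE M21. A second-quantification TPM under 0.01 was treated as 0. Own words are the percent of a transcript's 31-base words that no other transcript of its gene holds. Named transcripts were the 15 highest by TPM, the 10 highest by isoform percent in genes of at least 10 TPM, 3 per list, all of the SR, decay and polyamine lists, the 5 largest ratios each way, and 3 each side of the minimum. Some transcripts that this rule names are not reported here. The Smg1, Smg6 and Clu transcripts were named after their values were seen. With 1 group there was no test and no p-value. As a check of the code only, counts with random counting noise were simulated over 27278 transcripts. There, 100% of the 4-fold and 50.5% of the 2-fold changes put in passed 2-fold. The simulation held no error of read assignment, so it does not measure how well changes are found in these data. Python 3.11.15, pandas 2.3.3 and edgeR 4.0.16 (TMM scaling, an alternative) were used.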

Additional observations from a re-analysis of the deposited data

How the results depend on the processing

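No paired analysis was possible because there is only 1 group. The number of transcripts was 1780 with a minimum of 20 counts, 717 with 100, and 548 with support level 1 only. The median TPM was 2.22 and 5.16 with those minimums, and 7.96 in the first and 6.39 in the second quantification on the shared sum. The median isoform percent was 13.4 in the second quantification, 14.2 as a share of expected counts, 12.2 and 19.3 with the minimums of 20 and 100, 16.3 with support level 1, and 15.2 to 15.4 when either library was left out. Transcripts most abundant in both quantifications numbered 137. The SD of the log2 ratio between libraries was 0.61 and 0.37 with those minimums, 0.79 in the second quantification, and 0.34 with a pseudocount of 1 TPM. At least 2-fold apart were 149 in the second quantification and 18 with 100 counts. The median log2 ratio between quantifications turned to 0.063 when scaled by protein-coding transcripts and to 0.71 without rescaling. It was -0.10 with the pseudocount and -0.12 when either library was left out. At least 4-fold apart were 79 with 100 counts. The cause was not tested. The other 18 alternatives stayed within 1.5 times or the spread between libraries. Support level and presence in both quantifications were chosen after seeing the data. Leaving out a library gives no value for results between libraries. For the 2562 annotated transcripts with no count in either library, absence and a level too low for this depth cannot be told apart.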
